A study of Mus musculus with 4 samples.

Results

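The cells described here are regulatory T cells (Tregs) of the mouse colon in which transcripts of both Foxp3 and Il10 were detected and granzyme B transcripts were not. Foxp3 encodes the transcription factor that defines Tregs, Il10 encodes the cytokine interleukin 10, and Gzmb encodes granzyme B, a protease of cytotoxic granules. A cell was included when it held at least 1 count of Foxp3, at least 1 count of Il10 and 0 counts of Gzmb, and 85 of the 1050 cells that passed the quality filters did so. They are called Il10+ Tregs below. They made up 8.10% of the filtered cells (exact binomial 95% interval, 6.52% to 9.91%) and 25.6% of the 332 cells with a Foxp3 count. The cells they are set against are the 141 cells with Foxp3 but with 0 counts of Il10 and of Gzmb, called Il10- Tregs. Foxp3, Il10 and Gzmb chose the cells, so their levels are a description and no result.

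All cells came from male B6 mice aged 6 weeks. The labels number 4 samples, all in 1 group named Btheta_colon, with no untreated or otherwise contrasting group. Colons were digested with collagenase and dispase, and flow cytometry was used to take T cells by the markers CD45, TCRb and CD4 from the lamina propria, which is the connective tissue beneath the epithelium of the gut. Single cells were captured by inDrops, a droplet method that tags the RNA of each cell with a barcode. The barcodes of the deposited table carry no sample, so Il10+ and Il10- Tregs come from the same pooled material, cells are not replicates, and no test over animals was possible. Intervals below cover counting error only and leave out differences between cells and between animals.

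Colonic Tregs restrain responses to the microbiota and food, and interleukin 10 is a main product through which they do so: it acts through a receptor made of IL10RA and IL10RB, which signals through JAK1, TYK2 and STAT3. Mice whose Tregs lack Il10 are known to develop inflammation at mucosal surfaces. Tissue Tregs that express GATA3 and the interleukin 33 receptor (Il1rl1) are known as a source of amphiregulin (Areg), a ligand of the epidermal growth factor receptor that promotes epithelial repair. MAF, PRDM1 (BLIMP1) and other factors are known to promote Il10 transcription in T cells.

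Areg, and Il2ra, the high-affinity subunit of the interleukin 2 receptor, were among the genes with the largest ratios between Il10+ and Il10- Tregs, and their promoters are shown for that reason. Each line gives the 250 bases before the RefSeq transcription start, on the plus strand, 5′ to 3′ (RefSeq, GRCm38.p6, the assembly that mm10 represents). Areg lies on chromosome 5 at 91139599 to 91148432 and Il2ra on chromosome 2 at 11642807 to 11693193, both on the plus strand (GENCODE vM21, mm10). The printed windows are chr5:91139349-91139598 for Areg and chr2:11642542-11642791 for Il2ra.
Areg: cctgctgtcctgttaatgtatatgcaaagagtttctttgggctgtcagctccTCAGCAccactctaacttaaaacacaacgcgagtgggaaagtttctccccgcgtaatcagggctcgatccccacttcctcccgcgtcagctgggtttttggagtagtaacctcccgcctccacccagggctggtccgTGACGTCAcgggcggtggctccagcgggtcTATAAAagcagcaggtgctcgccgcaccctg
Il2ra: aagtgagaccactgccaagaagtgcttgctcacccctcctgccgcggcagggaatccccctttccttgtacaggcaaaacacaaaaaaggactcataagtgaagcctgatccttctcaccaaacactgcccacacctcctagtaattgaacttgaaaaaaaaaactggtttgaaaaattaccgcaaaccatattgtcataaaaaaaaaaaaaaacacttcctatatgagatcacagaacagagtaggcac

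Capitals mark matches to 6 motifs searched on both strands: a GATA site (AGATAA), an AP-1 site (TGANTCA), a MAF recognition core (TGCTGA), a STAT site (TTCNNNGAA), a cyclic AMP response element (TGACGTCA) and a TATA box (TATAAA). The last pair of motifs was added after the Areg sequence had been read. The Areg window held a MAF core on the other strand (TCAGCA) 198 bases before the start, a cyclic AMP response element 61 bases before it and a TATA box 31 bases before it. The Il2ra window held none of the 6. Among 32851 RefSeq promoter windows of the same length, 16.1% held the MAF core, 1.55% the cyclic AMP response element, 12.4% the TATA box, 9.99% the GATA site, 6.75% the AP-1 site and 7.02% the STAT site. A match describes the letters and does not show that a factor binds there.

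The Il10+ Tregs held 134238 counts, with a median of 1359 counts and 668 genes per cell and a range of 657 to 3755 counts. The Il10- Tregs held 207603 counts, with a median of 1202 counts and 614 genes per cell and a range of 507 to 7500 counts. Mitochondrial genes took a median of 4.30% of counts in Il10+ Tregs and 4.29% in Il10- Tregs, and ribosomal protein genes took 15.0% in Il10+ Tregs and 15.2% in Il10- Tregs. Within the gate, Foxp3 stood at 1 count in 32 Il10+ Tregs, at 2 in 26 and at 3 or more in 27, with at most 9. Il10 stood at 1 count in 36 of them, just inside the gate, at 2 in 15 and at 3 or more in 34, with at most 16. Of the 146 cells with both Foxp3 and Il10, 20 had 1 count of Gzmb and so fell just outside the gate, and 41 had 2 or more. In the Il10- Tregs, 76 of 141 cells (53.9%) held a single Foxp3 count. RNA free in the droplets can also give counts: among 64 cells without Foxp3 that held at least 2 of 6 naive T cell markers, called naive-marker cells here (median 1429 counts), 1 cell (1.56%; interval 0.0396% to 8.40%) had an Il10 count and 1 had a Gzmb count.

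Treg markers outside the gate were detected more often in both Treg sets than in naive-marker cells. Ctla4, which encodes the inhibitory receptor CTLA-4, was detected in 80% of Il10+ Tregs and 68.1% of Il10- Tregs, against 7.81% of naive-marker cells. Tnfrsf4 (OX40) was detected in 60% of Il10+ Tregs and 56.0% of Il10- Tregs, against 3.12% of naive-marker cells. Ikzf2, which encodes the Treg factor Helios, was found in 54.1% of Il10+ Tregs and 46.1% of Il10- Tregs, against 6.25% of naive-marker cells. These markers were also common in the 72 cells with Il10 but without Foxp3 or Gzmb, which are described further below. Ctla4 was detected in 76.4% of those cells, Tnfrsf4 in 70.8% and Ikzf2 in 47.2%. The markers therefore set Il10+ Tregs apart from naive-marker cells but not from Il10+ cells without Foxp3. The T cell receptor gene Trac was found in 71.8% of Il10+ Tregs and 75.2% of Il10- Tregs, and Cd4 in 42.4% of Il10+ Tregs and 35.5% of Il10- Tregs. Markers of other cells were at or near 0 in Il10+ Tregs: all 7 myeloid markers had 0 counts, 4 of 5 epithelial markers had 0 counts with 1 count in the list, and the B or plasma list summed to 4 counts in 3 cells. In Il10- Tregs the myeloid list summed to 11 counts in 5 cells, the epithelial list to 12 counts in 6 cells, and the B or plasma list to 3 counts in 2 cells. Stromal markers summed to 3 counts on each side, and those of CD8, gamma delta T or NK cells to 10 in Il10+ Tregs and 13 in Il10- Tregs. Ighm, the immunoglobulin heavy chain mu gene, was found in 36.5% of Il10+ Tregs, 36.2% of Il10- Tregs and 31.2% of naive-marker cells. The part of such cells in the ratios below was not tested beyond leaving out cells with 3 or more of the B, myeloid, epithelial and stromal counts, which removed none of the Il10+ Tregs and left 138 of the Il10- Tregs.

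Levels are given as CPM: the counts of a gene summed over the cells of 1 side, divided by all counts of that side, on the usual CPM scale, with an exact Poisson 95% interval. A log2 ratio is the CPM of Il10+ Tregs over that of Il10- Tregs, with an exact conditional 95% interval. Of 3028 genes with at least 20 counts over both sides, 477 (15.8%) stood at least 1.5-fold higher in Il10+ Tregs and 594 (19.6%) at least 1.5-fold lower, with a median log2 ratio of -0.03. Each gene list below is read against these shares. Because a few cells can carry most counts of a gene, a ratio is also given with counts capped at 1 per cell and gene. Capping pulls the ratio of a gene found in most cells toward equality, since each cell adds at most 1 count. The capped interval is the same conditional interval and ignores this limit, so it is wide for such genes. A capped interval that spans equality therefore does not show that levels were equal. Because Il10+ Tregs were somewhat deeper, detection is also given as the share of cells expected to hold a count if every cell were thinned to 500 counts.

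Of the receptor for interleukin 10, the ligand-binding chain stood higher in Il10+ Tregs than in Il10- Tregs. Il10ra, which encodes that chain, stood at 119 CPM in Il10+ Tregs (68.1 to 194) and 28.9 CPM in Il10- Tregs (10.6 to 62.9), a log2 ratio of 2.04 (0.62 to 3.69). The 16 counts in Il10+ Tregs lay in 11 of 85 cells (12.9%), with at most 3 in a cell, and the 6 counts in Il10- Tregs lay in 6 of 141 cells (4.26%). Capped counts gave 1.53, with an interval that held 0 (-0.03 to 3.25), and no naive-marker cell held a count. Il10rb, the shared second chain, stood at 44.7 CPM in Il10+ Tregs and 67.4 CPM in Il10- Tregs, and its log2 ratio was -0.59, or 0.21 when only cells with at least 2 Il10 counts were taken as Il10+ Tregs. Jak1, the kinase bound to IL10RA, stood at 1103 CPM in Il10+ Tregs and 1170 CPM in Il10- Tregs. Of 5 measured genes of the receptor and its signalling, Il10ra and Bcl3, a nuclear cofactor of NF-kappaB, were past 1.5-fold upward and Il10rb downward, and the median log2 ratio was 0.03. The intervals of Bcl3 (-0.72 to 1.98) and Il10rb (-2.26 to 0.88) held 0. Stat3 completes the measured members, and Tyk2 was not analysed here.

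Of the genes of the GATA3-expressing repair Treg, Areg stood higher in level and in detection in Il10+ Tregs. Areg stood at 343 CPM in Il10+ Tregs (251 to 457) and 125 CPM in Il10- Tregs (81.8 to 184), a log2 ratio of 1.45 (0.73 to 2.21). It was detected in 22 of 85 Il10+ Tregs (25.9%) and 18 of 141 Il10- Tregs (12.8%), with at most 7 counts per cell in Il10+ Tregs and 3 in Il10- Tregs. The log2 ratio was 0.95 with capped counts, with an interval that just held 0 (-0.02 to 1.93), and 12.3% of Il10+ Tregs and 5.35% of Il10- Tregs were expected to hold a count at 500 counts per cell. In naive-marker cells 1.56% held a count of Areg. Gata3, which encodes the lineage factor of this Treg state, stood at 2332 CPM in Il10+ Tregs (2080 to 2605) and 1681 CPM in Il10- Tregs (1509 to 1867), a log2 ratio of 0.47 (0.25 to 0.70), short of 1.5-fold, and of 0.25 (-0.26 to 0.75) with capped counts. It was detected in 71.8% of Il10+ Tregs and 57.4% of Il10- Tregs, and in 25% of naive-marker cells. Klrg1, an inhibitory lectin-like receptor of terminally differentiated Tregs, was detected in 50.6% of Il10+ Tregs and 40.4% of Il10- Tregs, with a log2 ratio of 0.30 (-0.06 to 0.66).

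Il1rl1, the interleukin 33 receptor of the same Treg state, went the other way in level but not beyond counting error. It had 12 counts in 9 Il10+ Tregs (89.4 CPM) and 27 counts in 16 Il10- Tregs (130 CPM), a log2 ratio of -0.54 (-1.66 to 0.49). Dusp10, a phosphatase of JNK and p38 kinases, had a log2 ratio of 2.07 (0.76 to 3.56), but 5 cells on each side held its counts and 47.4% of those in Il10+ Tregs lay in 1 cell. Cd74, the invariant chain of MHC class II, had 2 counts in Il10+ Tregs and 25 counts in 12 Il10- Tregs, a log2 ratio of -3.01. The same Il10- Tregs side held 19 counts of the class II gene H2-Aa in 5 cells, and the Il10+ Tregs held 0; Cd74 and H2-Aa are expressed by antigen-presenting cells, whose part in this difference was not tested. Of 11 measured genes of the repair list, 2 were past 1.5-fold upward and 1 downward, and the median log2 ratio was 0.39.

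**Figure D1:**
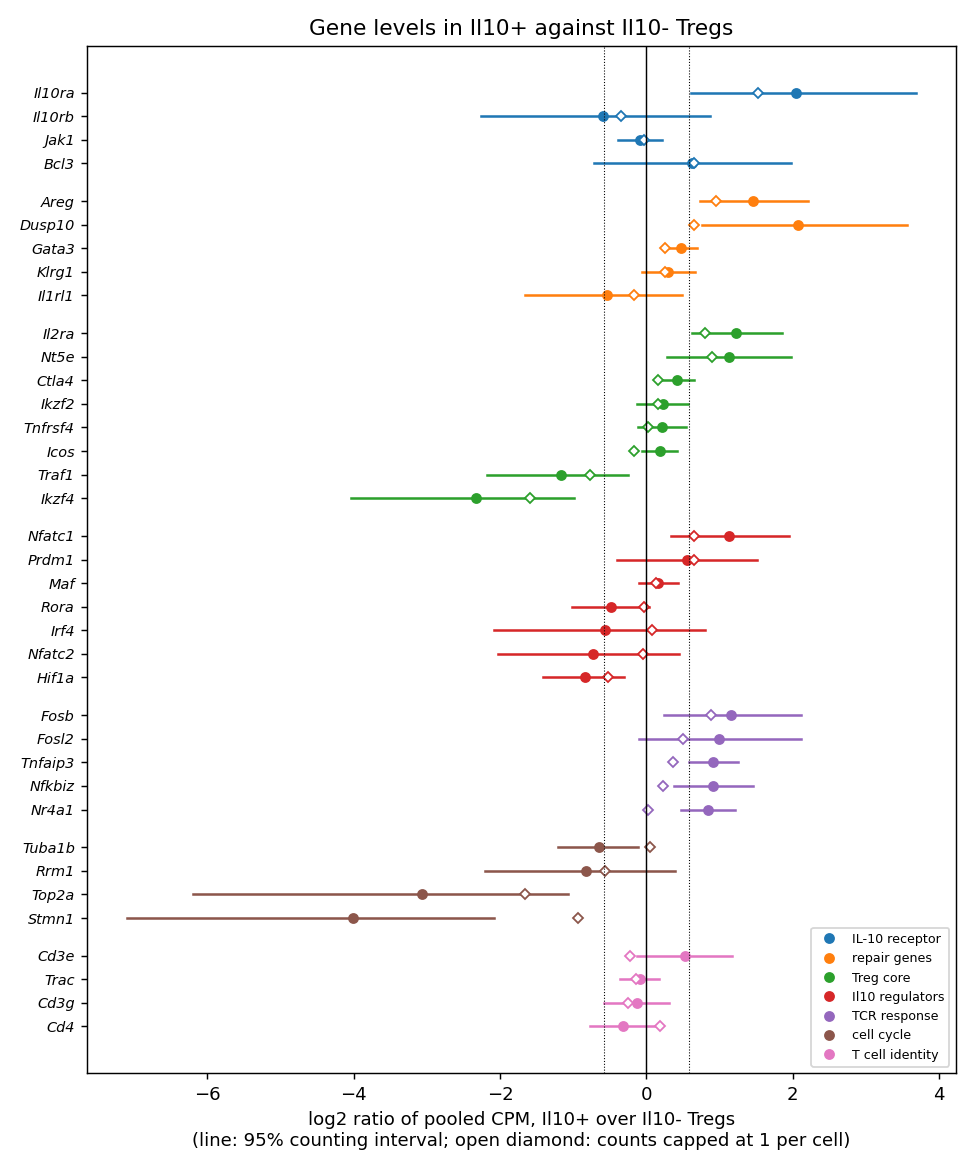
Log2 ratio of pooled CPM, Il10+ Tregs (85 cells) over Il10- Tregs (141 cells), for genes grouped by role. Filled points are ratios with all counts, lines their 95% counting intervals and open diamonds the ratio with counts capped at 1 per cell and gene; dotted lines mark 1.5-fold. The capped values of Il10ra (1.53), Areg (0.95) and Il2ra (0.80) lie right of 0. Their capped intervals, which are not drawn, hold 0 for Il10ra and Areg.

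Among the core Treg genes, Il2ra stood highest relative to Il10- Tregs. It had 440 CPM in Il10+ Tregs (335 to 567) and 188 CPM in Il10- Tregs (134 to 257), a log2 ratio of 1.23 (0.62 to 1.85) that was 0.80 with capped counts (0.02 to 1.60). Detection was 36.5% in Il10+ Tregs, 19.9% in Il10- Tregs and 7.81% in naive-marker cells, and 14 Il10+ Tregs and 10 Il10- Tregs held 2 or more counts. Nt5e, which encodes CD73, an enzyme that makes extracellular adenosine, stood at 231 CPM in Il10+ Tregs and 106 CPM in Il10- Tregs, a log2 ratio of 1.12 (0.29 to 1.98), with detection in 23.5% of Il10+ Tregs and 12.1% of Il10- Tregs and a capped value of 0.89 (-0.12 to 1.92). Ctla4 stood at 2071 CPM in Il10+ Tregs and 1551 CPM in Il10- Tregs, a smaller ratio (log2 0.42, 0.18 to 0.65) that was 0.16 with capped counts (-0.31 to 0.62). Icos, Tnfrsf4, Tnfrsf18 (GITR) and Ikzf2 had log2 ratios of 0.18 to 0.22, with intervals that held 0.

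Ikzf4, which encodes Eos, a corepressor that works with Foxp3, was the lowest core gene. It had 5 counts in 4 Il10+ Tregs, 37.2 CPM (12.1 to 86.9), and 39 counts in 19 Il10- Tregs, 188 CPM (134 to 257), a log2 ratio of -2.33 (-4.04 to -0.99). Capped counts gave -1.59, and 1 Il10- Treg held 23.1% of that side's counts. Traf1, an adaptor of TNF receptors, stood at 96.8 CPM in Il10+ Tregs and 217 CPM in Il10- Tregs, a log2 ratio of -1.16 (-2.18 to -0.25). Penk, which encodes proenkephalin, a source of opioid peptides, had 469 CPM in Il10+ Tregs and 207 CPM in Il10- Tregs (log2 1.18, 0.60 to 1.77). However, it was detected in 8 of 85 Il10+ Tregs (9.41%) and 15 of 141 Il10- Tregs (10.6%), 1 Il10+ Treg held 29 of the 63 counts, and the log2 ratio was 0.31 without that cell and -0.25 with capped counts. Over the 21 measured core genes, 4 were past 1.5-fold upward (Il2ra, Penk, Nt5e and Tnfrsf1b), 2 downward (Ikzf4 and Traf1), and the median log2 ratio was 0.22.

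**Figure D2:**
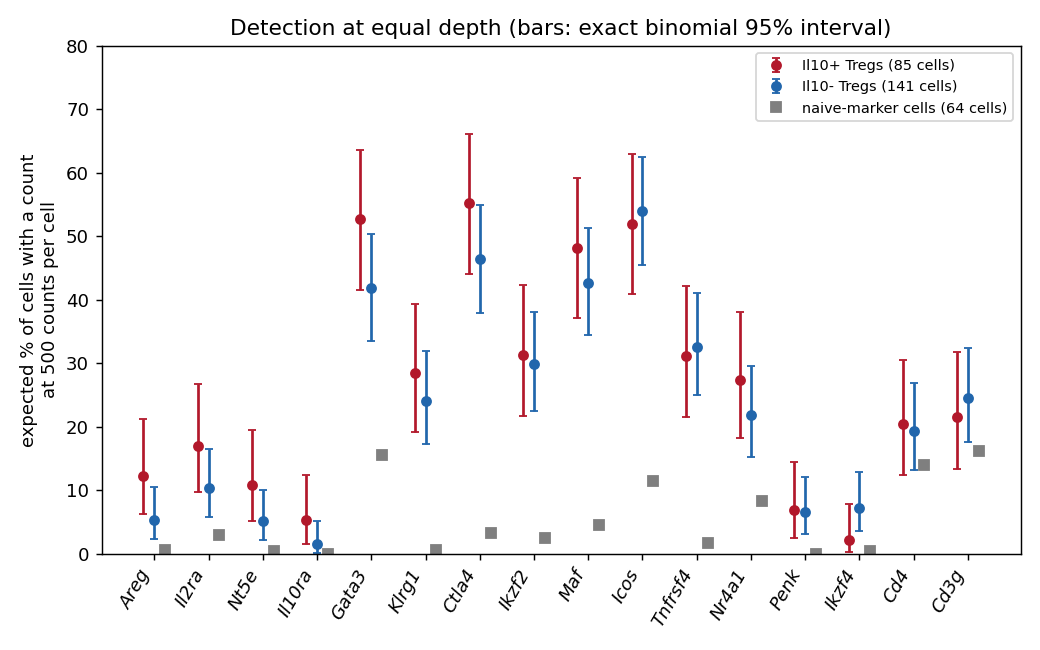
Expected share of cells with a count when each cell is thinned to 500 counts, for Il10+ Tregs, Il10- Tregs and naive-marker cells (y axis, percent). Bars, drawn for the Treg sets only, are binomial 95% intervals computed on the expected number of cells with a count, which need not be whole. Areg stands at 12.3% in Il10+ Tregs, 5.35% in Il10- Tregs and 0.656% in naive-marker cells, and Gata3 at 52.7% in Il10+ Tregs, 41.8% in Il10- Tregs and 15.6% in naive-marker cells, while Icos stands at 52.0% in Il10+ Tregs and 54.1% in Il10- Tregs.

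Factors known to act on Il10 transcription lay on both sides of equality. Maf stood at 1520 CPM in Il10+ Tregs (1318 to 1743) and 1358 CPM in Il10- Tregs (1204 to 1527), a log2 ratio of 0.16 (-0.11 to 0.43), with detection in 75.3% of Il10+ Tregs and 65.2% of Il10- Tregs. Prdm1 was detected in 16.5% of Il10+ Tregs and 9.93% of Il10- Tregs, with a log2 ratio of 0.56 (-0.40 to 1.51). Nfatc1, a calcium-regulated factor activated by the T cell receptor, was the 1 factor past 1.5-fold upward, at 253 CPM in Il10+ Tregs and 116 CPM in Il10- Tregs (log2 1.13, 0.34 to 1.95; 0.66 with capped counts). Hif1a, the oxygen-sensing factor, stood at 291 CPM in Il10+ Tregs (207 to 397) and 520 CPM in Il10- Tregs (427 to 628), a log2 ratio of -0.84 (-1.41 to -0.30), with detection in 22.4% of Il10+ Tregs and 30.5% of Il10- Tregs and a capped value of -0.52 (-1.38 to 0.29). Nfatc2 was past the fold downward at -0.72, with an interval of -2.02 to 0.44 and a capped value of -0.04. Of the 20 measured factors, 1 was past 1.5-fold upward and 2 downward, with a median log2 ratio of 0.05. Of a list of genes of induced Tregs, Maf, Rora and Ccr6 reached the count minimum, and none of these 3 was past 1.5-fold.

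Genes induced by T cell receptor signalling included 5 that stood higher in Il10+ Tregs, of which Nr4a1 was found at more counts per cell and in a like share of cells. Nr4a1, an early target of that signal, had 138 counts in 34 Il10+ Tregs (1028 CPM, 864 to 1215) and 119 counts in 53 Il10- Tregs (573 CPM, 475 to 686), a log2 ratio of 0.84 (0.48 to 1.21). Detection was 40.0% in Il10+ Tregs and 37.6% in Il10- Tregs, the median over cells with a count was 4 in Il10+ Tregs and 2 in Il10- Tregs, and the capped log2 ratio was 0.02. Tnfaip3, which encodes the NF-kappaB inhibitor A20, stood at 1244 CPM in Il10+ Tregs and 660 CPM in Il10- Tregs (log2 0.91, 0.58 to 1.25), with detection in 61.2% of Il10+ Tregs and 45.4% of Il10- Tregs and a capped value of 0.36, short of 1.5-fold. Nfkbiz, an inducible cofactor of NF-kappaB, had a log2 ratio of 0.91 (0.38 to 1.46). For this gene 28.4% of the counts in Il10+ Tregs lay in 1 cell, and the ratio was 0.45 without it. Of 25 measured genes, 5 (Fosb, Fosl2, Tnfaip3, Nfkbiz and Nr4a1) were past 1.5-fold upward and none downward, a share of 20% beside the 15.8% of all genes, and the median log2 ratio was 0.22. Genes that tissue digestion itself can induce overlap this list through Fosb, Fos, Jun, Junb, Ier2 and Dusp1. The 14 measured genes of the dissociation and heat shock list had 1 past the fold upward (Fosb), 1 downward (Hsph1) and a median of -0.12.

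**Figure D3:**
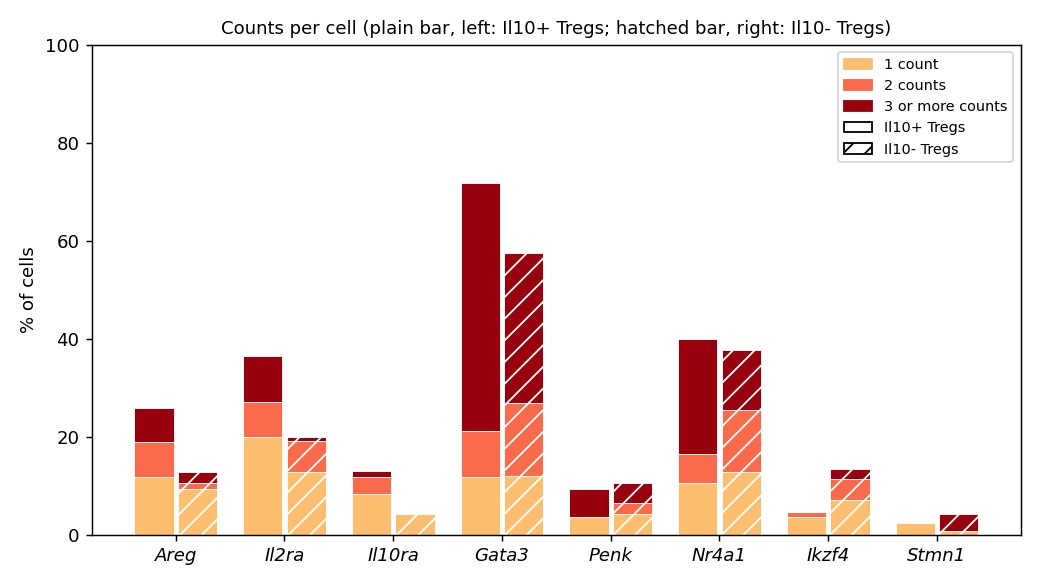
Share of cells with 1, 2 or 3 or more counts of 8 genes (y axis, percent of cells) in Il10+ Tregs (plain bars, left) and Il10- Tregs (hatched bars, right). Gata3 reaches 3 or more counts in 50.6% of Il10+ Tregs and 30.5% of Il10- Tregs, and Nr4a1 in 23.5% of Il10+ Tregs and 12.1% of Il10- Tregs, whereas Stmn1 counts of 3 or more occur in 3.55% of Il10- Tregs and in none of the Il10+ Tregs.

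Other secreted and surface molecules gave a mixed picture. Of 6 measured cytokine genes other than Il10, Areg and Tgfb1, the latent cytokine TGF-beta 1, were past 1.5-fold upward, and Il16 and Tnfsf11 (RANKL) downward. Tgfb1 stood at 261 CPM in Il10+ Tregs and 173 CPM in Il10- Tregs, with an interval that held 0. The intervals of Il16 (-2.06 to 0.23) and Tnfsf11 (-1.92 to 0.42) held 0 as well. Effector cytokines had few counts: Il17a had 0 counts on both sides, Ifng 0 in Il10+ Tregs and 3 in Il10- Tregs, and Tnf 0 in Il10+ Tregs and 11 in Il10- Tregs. With 0 counts, a level of up to 22.3 CPM is allowed in Il10+ Tregs and up to 14.5 CPM in Il10- Tregs (3 counts of each total). Of 9 genes of the TGF-beta and adenosine list, Nt5e, Skil and Tgfb1 were past the fold upward and none downward (33.3% beside 15.8%), with a median of 0.45.

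Among 13 measured cytokine receptors, Il12rb1, a subunit shared by the receptors of interleukins 12 and 23, and Il2ra were past the fold upward and none downward. Il12rb1 stood at 142 CPM in Il10+ Tregs and 53.0 CPM in Il10- Tregs, with a capped log2 ratio of 1.12 (-0.33 to 2.63). Of 7 measured chemokine genes, Ccr4, a receptor for skin and tissue homing, had 320 CPM in Il10+ Tregs and 159 CPM in Il10- Tregs, and Cxcr4, the receptor of CXCL12, had 52.1 CPM in Il10+ Tregs and 116 CPM in Il10- Tregs. Capped log2 ratios were 0.57 (-0.47 to 1.61) for Ccr4 and -1.08 (-2.69 to 0.29) for Cxcr4. The integrin pair Itgal and Itgb2, which forms LFA-1, was past the fold in both subunits with all counts. Itgal stood at 440 CPM in Il10+ Tregs and 260 CPM in Il10- Tregs, and Itgb2 at 648 CPM in Il10+ Tregs and 366 CPM in Il10- Tregs. With capped counts Itgal had 0.66 (-0.06 to 1.38) and Itgb2 0.57 (-0.15 to 1.29), the latter short of 1.5-fold. The remaining 13 of 15 measured integrin and residency genes were not past the fold, Itgae (CD103) included, with detection in 15.3% of Il10+ Tregs and 14.9% of Il10- Tregs. Of 9 checkpoint and costimulation genes, Tox was past the fold upward and Cd5 downward.

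Genes of dividing cells stood lower in Il10+ Tregs by count, with few cells behind the difference. Stmn1, a microtubule regulator of dividing cells, had 2 counts in 2 Il10+ Tregs and 50 counts in 6 Il10- Tregs, 1 of which held 14. Top2a, the topoisomerase of dividing cells, had 2 counts in 1 Il10+ Treg and 26 counts in 5 Il10- Tregs. Of 10 measured cycle genes, 5 were past 1.5-fold downward (50% beside the 19.6% of all genes) and 1, Mcm3, upward, with a median log2 ratio of -0.56. With counts capped at 1 per cell the median was 0.06, and within cells of 800 to 2000 counts the 4 genes still measured had a median of 0.46. Tuba1b, whose reads may be shared with other alpha tubulin genes, was reversed in 3 alternatives. Of 9 measured interferon-response genes, none was past the fold upward and 2 were past it downward (Ifi47 and Irf1, which make 22.2% beside 19.6%), with a median of -0.20. Ifi47, an interferon-inducible GTPase, stood at 112 CPM in Il10+ Tregs and 207 CPM in Il10- Tregs, a log2 ratio of -0.89 (-1.84 to -0.01).

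Metabolic and residual lists lay close to all genes or were thinly measured. Of 12 glycolysis genes, 1 was past the fold, the glucose transporter Slc2a3, at 74.5 CPM in Il10+ Tregs and 164 CPM in Il10- Tregs, and the median was -0.06. Of 3 lipid genes, Fasn (fatty acid synthase) was past it upward, with an interval that held 0. Of 13 genes of the S100, galectin and annexin list, Lgals3 and Anxa5 were past it upward, and the median was 0.20. Of 6 measured naive and circulating markers, S1pr1 was past the fold downward and Foxp1 upward. Foxp1, a factor of quiescent T cells, stood at 320 CPM in Il10+ Tregs and 164 CPM in Il10- Tregs (log2 0.97, 0.29 to 1.66), or at 0.52 with capped counts (-0.43 to 1.46). Tcf7 had 0 counts in Il10+ Tregs and 9 in Il10- Tregs. Of 5 granule genes other than Gzmb, Nkg7 alone was past the fold, with a log2 ratio of 0.63 (-0.43 to 1.69).

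**Figure D4:**
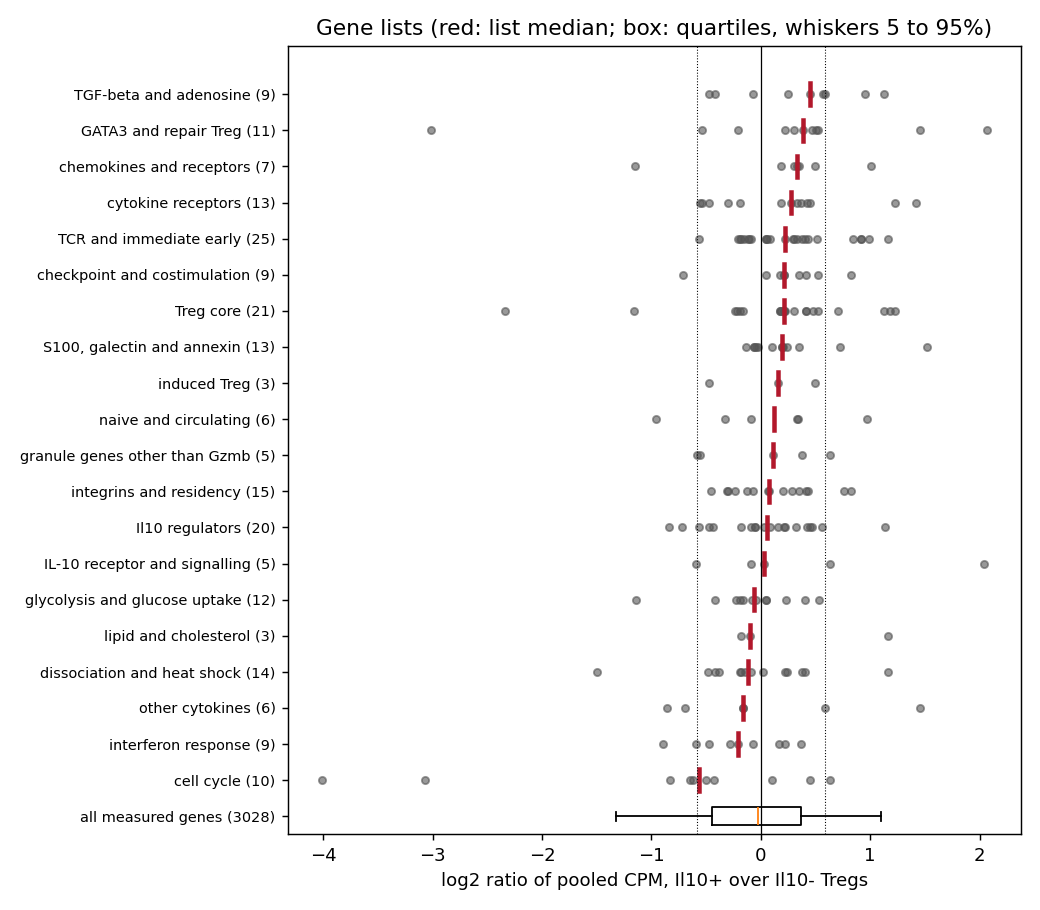
Log2 ratio of each measured gene (grey points) by gene list, Il10+ over Il10- Tregs, with list medians marked and the number of measured genes in brackets. The box at the foot covers all 3028 measured genes, with whiskers at the 5th and 95th percentiles. List medians run from -0.56 (cell cycle) to 0.45 (TGF-beta and adenosine).

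By rank rather than by list, among genes with at least 50 counts detected in at least 10% of the cells of the higher side, the 12 with the highest log2 ratio were Parp4, Areg, Ephx1, Ppp2r1a, Ctnnb1, Il2ra, Eif3c, Sumo2, Nfatc1, Nt5e, Mapkapk3 and Txn2. Sumo2, a small ubiquitin-like modifier whose reads may be shared with close copies, had the tightest interval of these, at 1468 CPM in Il10+ Tregs (1270 to 1687) and 645 CPM in Il10- Tregs (541 to 764), with detection in 72.9% of Il10+ Tregs and 48.2% of Il10- Tregs. Its log2 ratio was 1.18 (0.86 to 1.51) with all counts and 0.52 with capped counts, short of 1.5-fold. Parp4, a vault-associated ADP-ribosyltransferase, had the largest ratio (log2 1.93, 1.09 to 2.84), yet its 42 counts lay in 10 Il10+ Tregs and its 17 counts in 9 Il10- Tregs, and the capped value was 0.81 (-0.64 to 2.29). Ctnnb1, which encodes beta-catenin, was detected in 29.4% of Il10+ Tregs and 13.5% of Il10- Tregs. Among the 12 lowest were Mat2b, Derl2, Smap1, Hsph1, Mettl23, Hnrnph2, Ccm2, H2afv, Nono, Zbtb7a and Tmem167. Mat2b, the regulatory subunit of methionine adenosyltransferase, stood at 37.2 CPM in Il10+ Tregs and 222 CPM in Il10- Tregs, with detection in 5.88% of Il10+ Tregs and 17.0% of Il10- Tregs. Derl2, of endoplasmic reticulum protein degradation, stood at 52.1 CPM in Il10+ Tregs and 241 CPM in Il10- Tregs.

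The genes detected differed from cell to cell among the Il10+ Tregs. Of 5 genes (Areg, Il2ra, Klrg1, Penk and Nr4a1), none was detected in 16 of 85 cells (18.8%), 1 in 27, 2 in 23, 3 in 12, 4 in 6 and all 5 in 1 cell. Missed counts of such genes also give a spread, and their part in this one was not tested. Of the 22 Il10+ Tregs with Areg, 21 also held Gata3, which was found in 61 of 85. So did 16 of the 18 Il10- Tregs with Areg, where Gata3 was found in 81 of 141. This overlap was not particular to Gata3. Ctla4, found in 68 of 85 Il10+ Tregs and 96 of 141 Il10- Tregs, was held by 21 of the 22 and 17 of the 18 cells with Areg. Areg and Il2ra were found together in 6 Il10+ Tregs and 5 Il10- Tregs. Gata3 and Maf were found together in 46 of 85 Il10+ Tregs (54.1%) and 50 of 141 Il10- Tregs (35.5%). Split by Helios, Gata3, Ikzf2 and Maf were all present in 23 Il10+ Tregs (27.1%, 18.0% to 37.8%) and 32 Il10- Tregs (22.7%, 16.1% to 30.5%). Gata3 and Maf without Ikzf2 were found in 23 Il10+ Tregs (27.1%) and 18 Il10- Tregs (12.8%, 7.74% to 19.4%). Maf alone was found in 8 Il10+ Tregs (9.41%, 4.15% to 17.7%) and 32 Il10- Tregs (22.7%). None of the 3 was detected in 4 Il10+ Tregs and 12 Il10- Tregs. Detection of any pair grows with depth, and a gene with no count in a cell of this depth may still be expressed there.

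Within the Il10+ Tregs, the 49 cells with 2 or more Il10 counts were set beside the 36 with 1, with a median of 1359 counts in those with 2 or more and 1369.5 in those with 1. Areg stood at 441 CPM in cells with 2 or more Il10 counts and 210.1 CPM in those with 1, a log2 ratio of 1.07 (0.08 to 2.15). Il2ra had a log2 ratio of 0.99 (0.14 to 1.92), Gata3 of 0.49 (0.15 to 0.84) and Icos of 0.56 (0.18 to 0.94). Hif1a, lower in Il10+ than in Il10- Tregs, was higher in cells with 2 or more Il10 counts than in those with 1, with a log2 ratio of 1.52 (0.37 to 2.85). With capped counts the interval of each of these 5 genes held 0, at 0.70 (-0.68 to 2.24) for Areg, 0.47 (-0.66 to 1.67) for Il2ra, 0.03 (-0.74 to 0.82) for Gata3, -0.30 (-1.07 to 0.47) for Icos and 1.09 (-0.47 to 2.92) for Hif1a. Gata3 was detected in 71.4% of cells with 2 or more Il10 counts and 72.2% of those with 1, and Icos in 65.3% of cells with 2 or more and 83.3% of those with 1. Other genes went down in this split, among them Cd3e (-1.54, -2.61 to -0.54) and Fosb (-1.35, -2.70 to -0.11). Their capped intervals also held 0. Il10ra (-0.43, -2.05 to 1.18) and Nr4a1 (-0.05, -0.56 to 0.46), higher in Il10+ than in Il10- Tregs, had intervals that held 0 in this split. Il10ra had 8 counts in each of the split sets, too few to decide whether it rose with Il10 counts.

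The Il10+ Tregs were then set beside the closest other cells of the table, the 61 Il10+ Foxp3+ cells with Gzmb (median 1312 counts) and the 72 Il10+ cells without Foxp3 or Gzmb (median 1242 counts). Against the cells with Gzmb, 382 of 2060 measured genes (18.5%) stood at least 1.5-fold higher in Il10+ Tregs and 414 (20.1%) at least 1.5-fold lower. Areg stood at 343 CPM in 22 Il10+ Tregs and 72.9 CPM in 4 cells with Gzmb, a log2 ratio of 2.23 (1.08 to 3.62), and Gata3 at 2332 CPM in Il10+ Tregs and 1344 CPM in cells with Gzmb, a log2 ratio of 0.80 (0.49 to 1.10). With capped counts Areg had a ratio of 1.99 (0.43 to 3.99) and Gata3 one of 0.42 (-0.22 to 1.08). Il10ra had 16 counts in Il10+ Tregs and 0 in cells with Gzmb. Against a floor of 3 counts summed over the 61 cells, its log2 ratio was 1.93, and its interval began at 1.46. With capped counts the ratio was 1.41, with an interval that began at 0.86. Ly6a, which encodes the surface protein Sca-1, stood at 179 CPM in Il10+ Tregs and 458 CPM in cells with Gzmb, a log2 ratio of -1.36 (-2.14 to -0.61). Ctla4 was also lower, at 2071 CPM in Il10+ Tregs and 2594 CPM in cells with Gzmb (log2 -0.32, -0.58 to -0.07), with a capped value of -0.16 (-0.70 to 0.38). Of 18 factors of Il10 transcription, 8 were past 1.5-fold upward and 3 downward with a median of 0.55. Maf stood lower, at 1520 CPM in Il10+ Tregs and 1896 CPM in cells with Gzmb (log2 -0.32, -0.61 to -0.02). Hif1a was also lower (log2 -0.75, -1.40 to -0.11). With capped counts the intervals of Maf (-0.64 to 0.48) and Hif1a (-1.75 to 0.12) held 0. Of 21 genes of T cell receptor signalling, 8 were upward and 1 downward with a median of 0.52. The dissociation and heat shock list, which shares genes with it, had 4 of 14 upward, 2 downward and a median of 0.29, and its part in that count was not tested. Of 7 chemokine genes, 1 was upward and 3 were downward with a median of -0.57.

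Against Il10+ cells without Foxp3, 397 of 2096 measured genes (18.9%) stood at least 1.5-fold higher in Il10+ Tregs and 395 (18.8%) at least 1.5-fold lower. Areg did not differ beyond counting error, at 343 CPM in 22 of 85 Il10+ Tregs and 325 CPM in 8 of 72 cells without Foxp3, with a log2 ratio of 0.07 (-0.60 to 0.77). Its 33 counts in cells without Foxp3 lay in fewer cells than the 46 counts in Il10+ Tregs. Il10ra stood at 119 CPM in Il10+ Tregs and 118 CPM in cells without Foxp3, and Ctla4 at 2071 CPM in Il10+ Tregs and 2140 CPM in cells without Foxp3, also within counting error. Ccr4 stood at 320 CPM in Il10+ Tregs and 88.8 CPM in cells without Foxp3 (log2 1.85, 0.80 to 3.07), and Il1rl1 at 89.4 CPM in Il10+ Tregs and 19.7 CPM in cells without Foxp3 (log2 2.18, 0.01 to 5.38). Maf stood at 1520 CPM in Il10+ Tregs and 2002 CPM in cells without Foxp3 (log2 -0.40, -0.68 to -0.11). With capped counts the intervals of Ccr4 (-0.25 to 2.79), Il1rl1 (-0.45 to 5.08) and Maf (-0.76 to 0.31) held 0. Of 6 interferon-response genes, 1 was past the fold upward and 3 downward, with a median of -0.29. These comparisons share the same 85 Il10+ Tregs, and Foxp3 itself can be missed in a cell of this depth.

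**Figure D5:**
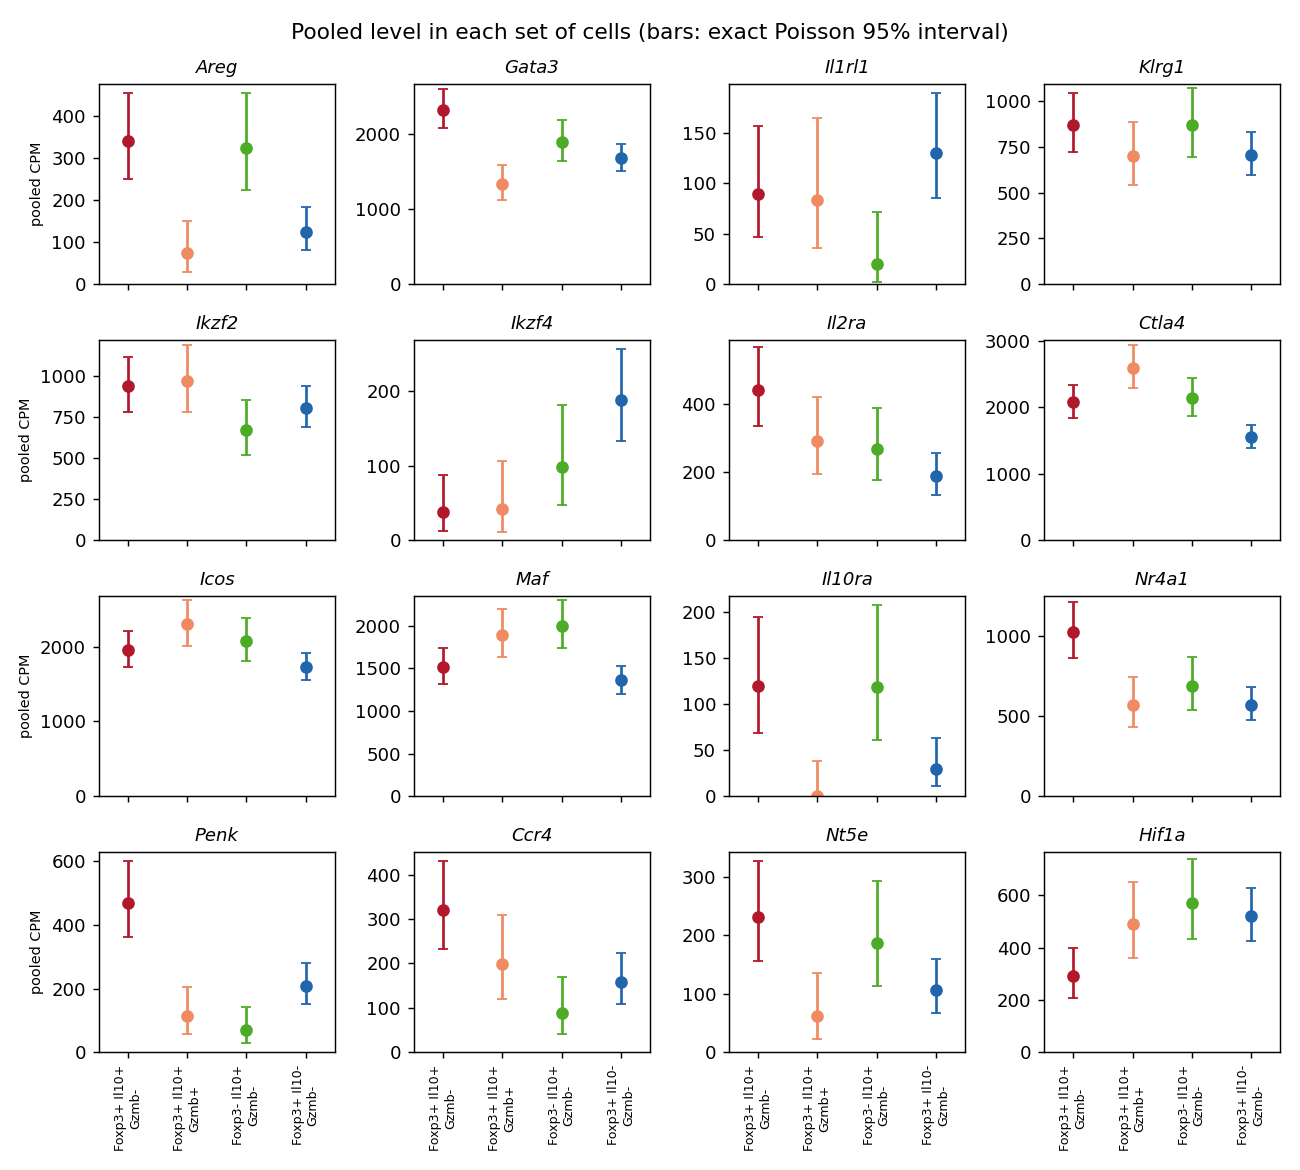
Pooled CPM (y axis, each panel from 0) of selected genes in Il10+ Tregs, Foxp3+ Il10+ cells with Gzmb, Il10+ cells without Foxp3, and Il10- Tregs, with exact Poisson 95% intervals as bars. Areg is lowest in cells with Gzmb (72.9 CPM) and in Il10- Tregs (125 CPM), Ctla4 is highest in cells with Gzmb (2594 CPM), and Ikzf4 is highest in Il10- Tregs (188 CPM).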

How the data were processed

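Single CD4 T cells of the mouse colon, from samples the labels number 1 to 4, were measured by inDrops, per the labels' protocols. The deposited values are raw counts per barcode and gene symbol in 1 table, which the authors made with TopHat2 and SAMtools on mm10, per the submitters' processing notes. Those notes give no versions or roles. How reads were counted, with which annotation, whether molecular identifiers were collapsed and how barcodes were selected is not given in the sources used here. In all, the table held 1690867 counts for 1985 barcodes and 25724 genes, of which 8251 had 0 counts. No barcode occurred more than once, and no barcode carries a sample, so the table was handled as 1 sample, the count model kept for separable samples was not used, and no p-value was computed.

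A cell was kept if it held 500 counts or more over 200 genes or more, of which less than 20% were mitochondrial (1050 cells, 1549040 counts). Doublets were kept in the main values and left out in an alternative (Scrublet in scanpy 1.11.5, 9 cells called, 0.857%). Levels are CPM computed here from pooled counts. Genes with at least 20 counts over both sides were measured, and called past the fold at 1.5-fold. Where a side held 0 counts, the ratio was taken against a floor of 3 counts for the whole side. Such a ratio leaves out the counting error of the other side. Ratio intervals were checked on simulated pooled counts drawn from the Poisson model that they assume. That check covers the calculation only, because the simulated counts were not clumped in cells as real ones can be. Symbols were matched to GENCODE vM21 (25033, 97.3%). Python 3.11.15, numpy 2.4.6, pandas 2.3.3, scipy 1.17.1 and matplotlib 3.10.9 were used.

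The genes named are those of the 12 highest and the 12 lowest ratios with at least 50 counts and detection in at least 10% of the cells of the higher side, up to 4 of largest ratio per list, fixed anchors and cell type markers. The ranking leaves out gate genes, predicted genes and genes of ribosomal proteins, mitochondria, immunoglobulins and T cell receptors. Of the other genes the text names, those past the fold in a list, those with few counts and those of the 2 side comparisons were chosen after their values were seen. The cells and the gene lists were chosen with earlier results of these data known. Some genes are not reported here and were left out of the lists.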

Additional observations from a re-analysis of the deposited data

How the results depend on the processing

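No paired analysis was possible because the labels give 1 group and the barcodes carry no sample. The counts of 477 genes at least 1.5-fold higher and 594 lower in Il10+ Tregs were 103 and 107 of 1107 genes with at least 50 counts, 193 and 266 at 2-fold, 3828 and 3280 of 12172 genes without a minimum, and 283 higher of 1865 genes within cells of 800 to 2000 counts (63 Il10+ and 100 Il10- Tregs). The share of Il10+ Tregs, 8.10%, was 8.99% among cells of at least 1000 counts and 8.07% without the 9 called doublets. Of 62 named genes past 1.5-fold, 57 kept their direction under each alternative run and 33 also stayed past the fold. The other 5 reversed: Penk to -0.25 with capped counts, Il10rb to 0.21 with at least 2 Il10 counts, Rrm1 to 0.020 with every cell weighted alike, Il16 to 0.096 within 800 to 2000 counts, and Tuba1b to 0.050 capped, 0.71 within 800 to 2000 counts and 0.092 by detection at 500 counts. The cause was not tested. Over all alternatives the log2 ratio ran from 0.95 to 1.82 for Areg, 0.71 to 1.57 for Il2ra, 1.5 to 2.32 for Il10ra, -2.41 to -1.59 for Ikzf4, -0.90 to -0.37 for Hif1a and 0.02 to 0.96 for Nr4a1. Median-of-ratios scaling moved all ratios by 0.03. Depth limits genes with few counts: 3 counts are 22.3 CPM in Il10+ Tregs and 14.5 CPM in Il10- Tregs.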

Other observations

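Several inhibitory receptors and other surface molecules of T cells were too sparse for a ratio. Lag3 had 10 counts in 6 Il10+ Tregs and 6 counts in 5 Il10- Tregs, Tigit 9 counts in 2 Il10+ Tregs and 1 count in 1 Il10- Treg, and Pdcd1 9 counts in Il10+ Tregs and 10 counts in Il10- Tregs. Entpd1, which encodes CD39, the enzyme upstream of CD73 in adenosine production, had 1 count in 1 Il10+ Treg and 11 counts in 7 Il10- Tregs, whereas Nt5e stood higher in Il10+ Tregs. Il4ra, the interleukin 4 receptor, had 3 counts in 3 Il10+ Tregs and 16 counts in 10 Il10- Tregs. Cd96, a receptor for nectin family ligands, had 4 counts in 3 Il10+ Tregs and 15 counts in 15 Il10- Tregs. Ccnb2, a mitotic cyclin, had 0 counts in Il10+ Tregs and 10 counts in 6 Il10- Tregs. These genes were chosen after their values were seen, and none reached the minimum of 20 counts.

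Of the Il10+ Tregs with Il1rl1, all 9 also held Klrg1 and all 9 held Ctla4, where Klrg1 was found in 43 of 85 cells and Ctla4 in 68. In Il10- Tregs, 9 of the 16 cells with Il1rl1 held Klrg1 and 11 held Ctla4. Il1rl1 and Areg were found together in 2 Il10+ Tregs and 4 Il10- Tregs. Prdm1 and Ikzf2 were found together in 9 of the 14 Il10+ Tregs with Prdm1 and in 3 of the 14 Il10- Tregs with Prdm1. These pairs were picked from all pairs of 13 genes after they were seen.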
